A study of Mus musculus with 10 samples.

Results

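The genes described here are those whose symbol begins with Rpl or Rps and a digit, the usual naming of the proteins of the large and small subunit of the cytosolic ribosome. Kinases named Rps6k and pseudogenes were left out. Each gene was read through 1 probe set, the brightest over all arrays among those annotated to that gene alone. This gave 47 genes of 18193 measured in all, 24 named for the large and 23 for the small subunit. Of the 47, 40 encode the standard ribosomal proteins. Another 5 encode paralogues, second copies of such a protein (Rpl3l, Rpl22l1, Rpl39l, Rps4l and Rps27l). The last 2 were caught by the symbol alone: Rpl7l1, a relative of Rpl7 with a role in ribosome assembly, and Rps19bp1, a protein that binds Rps19 and is not part of the ribosome. The RefSeq table used here holds 85 protein-coding genes under the same symbol rule, and those without a probe set of their own were not analysed here.

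Transcript levels came from primary cultures of keratinocytes, the main cell of the epidermis, taken from mouse skin and read on 10 one-colour Affymetrix mouse expression arrays. Signals are log2 values made by robust multi-array averaging (RMA), so a difference of 1 is a 2-fold change. There were 5 arrays labelled Sgpp1+/+ (WT, numbered 1 to 5) and 5 labelled Sgpp1-/- (KO, numbered 8, 9, 10, 21 and 23). Sgpp1 encodes a phosphatase of the signalling lipid sphingosine-1-phosphate. All cells were kept for 3 to 4 days at 0.05 mM calcium with 8% fetal calf serum, a medium that holds mouse keratinocytes in a basal state. The labels do not say whether the arrays of a group came from separate animals or cultures, so p-values measure the spread between these samples, which may be technical. Nor do they give the ages, strain, sex or the disrupted part of the gene. The signal of Sgpp1 itself was 7.67 ± 0.84 in WT and 8.82 ± 0.24 in KO (log2, mean ± SD, n = 5 each), with a limma adjusted p of 0.102, so the knockout is taken from the labels alone.

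Most ribosomal proteins are made in nearly equal amounts, 1 of each per ribosome. The mRNAs of ribosomal proteins are among the most abundant of a growing cell. Most of these mRNAs begin with an unbroken run of pyrimidines, the 5′ terminal oligopyrimidine (TOP) motif. Through it the growth-regulating kinase complex mTORC1, acting in part through the RNA-binding protein Larp1, controls how much of the mRNA is translated, so that the amount of mRNA and the amount of protein made can part. In the epidermis, basal keratinocytes divide and build ribosomes, and cells that leave the basal layer slow both. An array of total RNA reads only the amount of mRNA. In a bulk culture, fewer cells of a type and less RNA per cell cannot be told apart.

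Pyrimidine runs can be seen in the genome near the RefSeq transcript starts. RefSeq promoter windows (GRCm38.p6, 250 bases before to 50 after the start) were found for 41 of the 47 genes, 49 windows in all. The lines below show 30 bases around the start, 5′ to 3′ on the strand of the gene, with the longest run of C and T that begins within 20 bases of the start in capitals. They were chosen to show Rps6, the substrate of the S6 kinases, then Rpl35 and Rps10 as examples with long runs, and then 2 core genes each followed by its paralogue.
Rps6 (chr4:86857345-86857374, minus strand): gtcgggCCTCTTTTTCgtgacgcctcccag
Rpl35 (chr2:39005115-39005144, minus strand): gccccgCCCTTTCCTCTTTCTCTCgaacca
Rps10 (chr17:27635224-27635253, minus strand): cgcacgCCCCTTCCTTTCCagcctccgcct
Rps27 (chr3:90213627-90213656, minus strand): ctttcgCTCCTTTCCggcggtgacgacctc
Rps27l (chr9:66946068-66946097, plus strand): tctccaCTCCTCCCCgccgcctctatcccg
Rpl39 (chrX:37085193-37085222, minus strand): tagcgaCTTCTTCTaatcgcgttcttccgg
Rpl39l (chr16:10170215-10170244, plus strand): cccaggCCTTTCCggatttccggtggtcgc
The run is 10 bases in Rps6, 18 in Rpl35, 13 in Rps10, 9 in both Rps27 and the Rps27l window shown, 8 in Rpl39 and 7 in Rpl39l. Rps27l has another RefSeq start, with a run of 4. In the Rps27l window shown and in Rpl39l the run begins 12 and 7 bases before the RefSeq start and ends before it. In Rpl39 it begins at base 7 of the transcript. The lines therefore do not show that each mRNA begins with its run.

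A run of 7 or more pyrimidines beginning within 20 bases of the start stood in 26 of the 49 windows (53.1%), against 25.5% of 32851 mouse promoter windows. By class it stood in 23 of 41 windows of the core genes (56.1%) and in 3 of 8 windows of the paralogues and related genes (37.5%). The letters CCGGAAG, a core of binding sites of ETS factors, were found on either strand in 38.8% of the windows and in 8.86% of all windows. The shares were 12.2% and 6.4% for AGATGGC, a core of YY1 sites, 51.0% and 35.7% for GGGCGG, a core of Sp1 sites, and 10.2% and 13.6% for TATAAA. These are counts of letters in fixed windows, several genes have more than 1 window, and a missing match says nothing about a factor.

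None of the 47 genes passed the test between KO and WT. The test was limma's moderated test over all 18193 genes with Benjamini-Hochberg adjustment at 0.05, and it called 2.30% of all genes higher and 0.346% lower in KO. Of the 47 it called 0 higher and 0 lower. At an unadjusted p below 0.05 it picked 1 of the 47, Rpl39, or 2.13%, against 13.0% of all genes. The smallest adjusted p among the 47 was 0.282, also for Rpl39.

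The differences were also small. KO minus WT ran from -0.27 (Rpl7l1) to 0.30 (Rpl39) on the log2 scale, while the smallest difference of any gene called on these arrays was 0.53. The median size of a difference was 0.10 in the 47 genes and 0.15 in all genes. The 95% interval of the limma fit lay wholly within 1.5-fold in either direction for 39 of the 47 genes (83.0%) and for 55.5% of all genes. It lay within 2-fold for 46 of the 47, with Rpl39l as the exception. The 8 genes whose interval reached past 1.5-fold were Rps6, Rps3a1, Rpl14, Rpl22l1, Rps27l, Rps19bp1, Rpl39l and Rpl7l1.

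**Figure D1:**
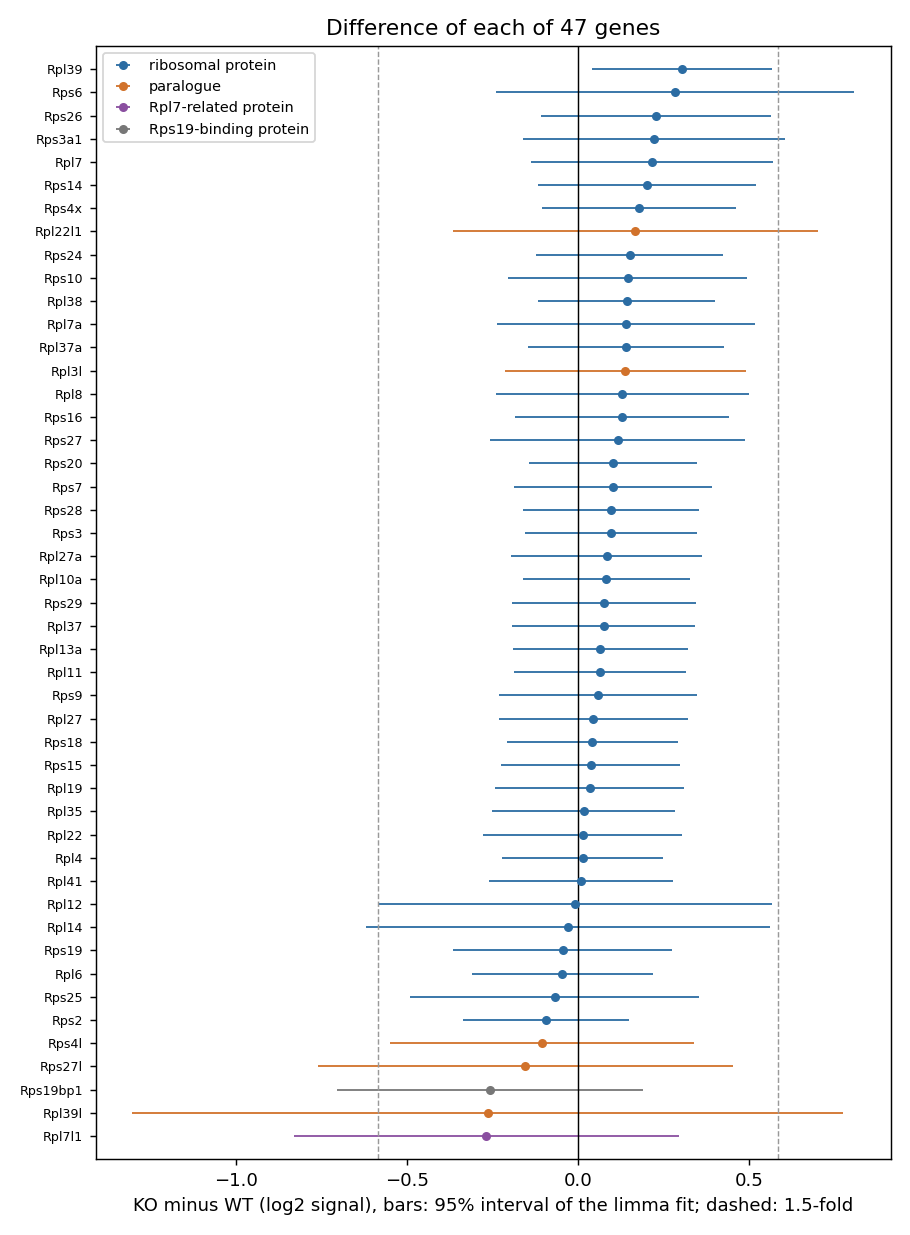
KO minus WT (log2 signal, x axis) of each of the 47 genes, with bars for the 95% interval of the limma fit and dashed lines at 1.5-fold. Core ribosomal proteins lie between -0.09 and 0.30, and only the interval of Rpl39 (0.04 to 0.57) leaves 0 out.

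The replicate arrays lay close together in these genes. The pooled SD within a group had a median of 0.163 in the 47 genes and 0.287 over all genes, and the median SE of a difference was 0.134 against 0.179. This was not particular to the 47 genes. In 14 translation elongation and termination factors, which were also bright, the medians were 0.158 and 0.132. There 78.6% of the intervals lay within 1.5-fold. RMA compresses differences of dim probe sets, and a probe set near the top of the scale can also understate a change, so the intervals bound the signal and not the transcript. This matters most for the genes whose own probe set was dim. The mean over the 10 arrays was 2.04 for Rpl37, 2.38 for Rps16, 2.61 for Rpl3l and 4.36 for Rps27, and for Rpl37, Rps16, Rps27, Rpl39, Rpl14, Rps6, Rpl12 and Rps25 a probe set shared with other genes read more than 2 log2 units brighter than the own one.

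The small differences had more positive than negative signs among the core genes and more negative among the paralogues and related genes. Of the 47 genes 36 had a positive and 11 a negative difference (76.6% positive, against 47.6% of all genes), with a median of 0.08 against -0.01 over all genes. The median was 0.07 for the 24 large subunit genes and 0.10 for the 23 small subunit genes, and without WT 1 these were 0.0022 and 0.04. Among the 40 core genes 34 were positive, with a median of 0.08. Among the 7 paralogues and related genes 2 were positive, with a median of -0.15, and the 5 lowest differences of all 47 genes were in this class (Rpl7l1, Rpl39l, Rps19bp1, Rps27l and Rps4l). That grouping of the lowest values was seen after the values were known and has no test.

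The positive direction of the core genes rested in part on 1 array. The level of a gene on an array is given here as its deviation from its own mean over the 10 arrays, and its median over the 47 genes was -0.23 on WT 1. It was 0.07, -0.02, -0.05 and 0.02 on WT 2 to WT 5, and 0.15, -0.02, 0.04, -0.14 and 0.15 on KO 8, 9, 10, 21 and 23. WT 1 gave the lowest value of the 10 arrays for 25 of the 47 genes and KO 21 for 11, while KO 8 gave the highest for 17 and KO 23 for 11. Of all genes, 19.1% were lowest on WT 1 and 17.0% on KO 21, while 12.3% were highest on KO 8 and 12.1% on KO 23. WT 1 was also the highest array for 25.5% of all genes. KO 21, the lowest KO array, lies below 4 of the WT arrays.

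Other measures also set some of these arrays apart. The SD of the signal over all probe sets was 2.18 on WT 1 and 2.29 on KO 21, the smallest pair, and 2.31 to 2.40 on the rest. Of the 910 genes with the highest mean signal, 39.7% were lowest on WT 1 and 19.6% on KO 21. The mean of 12 poly-A spike-in probe sets, RNA added during labelling, was highest on WT 1 (11.3), KO 8 (11.0) and WT 2 (10.7). It lay between 9.85 and 10.4 on the others, with KO 21 the lowest. The spike-in mean was thus high on both WT 1 and KO 8, where the ribosomal protein signal was low and high. The part of array spread and of spike-in signal in the ribosomal protein values was not tested. Without WT 1 the median of the 47 genes was 0.02, with 31 positive and 16 negative (51.6% of all genes positive). Without WT 1 and KO 21 it was 0.06 with 37 positive, and without WT 1, WT 2 and KO 8 it was 0.02 with 30 positive. With every array centred and scaled to one spread it was 0.05 with 32 positive. By class, 30 of the 40 core genes were positive without WT 1, with a median of 0.03 against 0.08 on all arrays. Of the 7 paralogues and related genes 6 were negative without WT 1, with a median of -0.29 against -0.15 on all arrays.

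**Figure D2:**
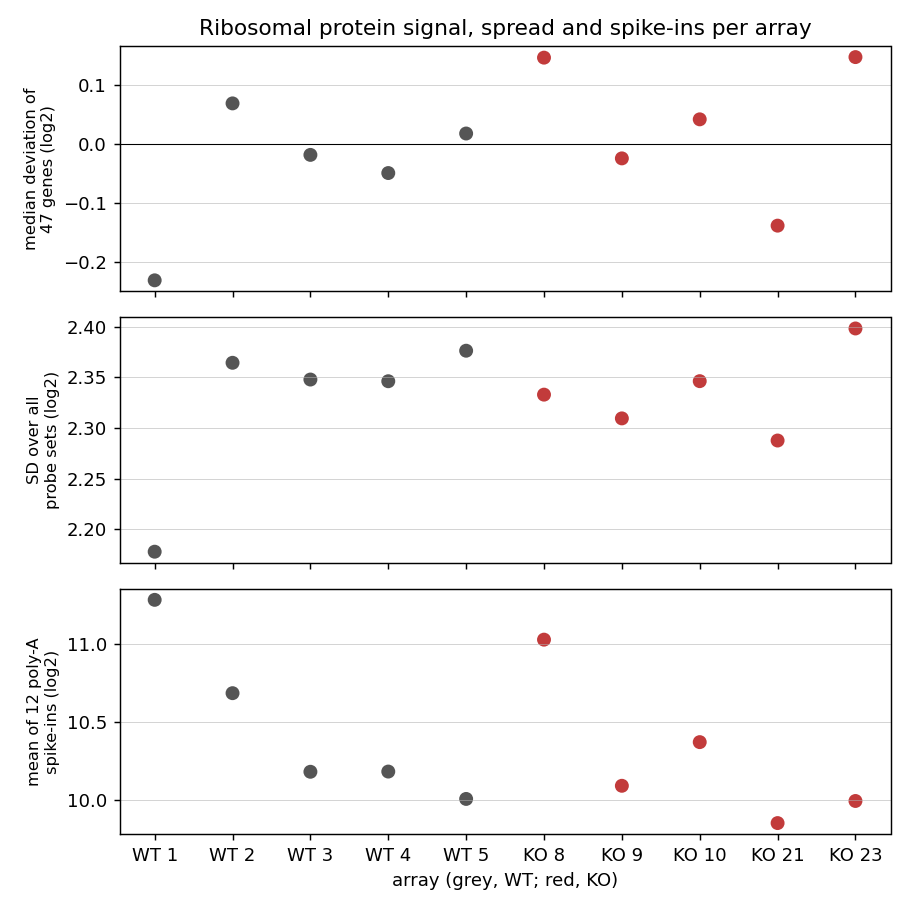
Per array (x axis; grey WT, red KO): the median deviation of the 47 genes from their 10-array means (top), the SD over all probe sets (middle) and the mean of 12 poly-A spike-in probe sets (bottom), all in log2 units. WT 1 is lowest in the first and second (-0.23 and 2.18) and highest in the last (11.3). KO 21 is the second lowest in the first (-0.14) and the lowest in the last (9.85).

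In the large subunit Rpl39, a very short protein that lines the exit tunnel for the growing peptide, stood apart by the order of its arrays. Its signal was 6.34, 6.19, 6.01, 6.24 and 6.32 on WT 1 to 5 and 6.62, 6.39, 6.54, 6.63 and 6.45 on KO 8, 9, 10, 21 and 23. Every KO array was above every WT array, and WT 1 was not the lowest. The difference was 0.30 (SE 0.12, limma adjusted p = 0.282), or 1.23-fold, and did not pass. It was the only one of the 47 genes without overlap between the groups with KO above, where 3.36% of all genes had none, and 0 had KO below, where 1.02% of all genes did. Without KO 9, Rpl38 also had no overlap, without KO 8 Rps2 had none with KO below, and with the arrays centred on their medians Rpl39 overlapped. The probe set is the only one annotated to Rpl39 alone, and a shared one read 5.76 log2 units brighter. That one is among 109 probe sets listing a ribosomal protein gene with other genes, of which 0 were without overlap in either direction. Of all 45037 probe sets, 1028 had every KO array above every WT array and 384 had every KO array below. The brighter probe set thus did not show the separation.

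Rpl7, a large subunit protein that contacts ribosomal RNA, read 10.80, 11.53, 11.24, 11.11 and 11.16 in WT and 11.68, 11.30, 11.40, 11.05 and 11.49 in KO. The groups overlapped, with KO 21 below 4 WT arrays and WT 2 above 4 KO arrays. The difference was 0.22 (SE 0.16, limma adjusted p = 0.681), and the other probe sets of Rpl7 gave 0.18 and 0.19. Rpl38, which in mice is needed for the translation of certain Hox mRNAs, read 12.32, 12.68, 12.68, 12.56 and 12.67 in WT and 12.72, 12.67, 12.72, 12.71 and 12.81 in KO. Here WT 1 alone was well below the rest, and the difference was 0.14 (SE 0.12).

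Rpl11, which with Rpl5 and 5S RNA binds Mdm2 when ribosome assembly fails, read 12.13, 12.36, 12.28, 12.22 and 12.36 in WT and 12.44, 12.27, 12.32, 12.24 and 12.41 in KO, a difference of 0.07 (SE 0.12). Rpl13a, which can leave the ribosome to repress translation of inflammatory mRNAs, read 12.63, 12.62, 12.46, 12.31 and 12.39 in WT and 12.60, 12.57, 12.59, 12.46 and 12.52 in KO, a difference of 0.07 (SE 0.12). Rpl10a, a protein that not every ribosome carries, read 11.92, 12.15, 12.12, 12.09 and 12.13 in WT and 12.23, 12.15, 12.23, 12.07 and 12.15 in KO, a difference of 0.08 (SE 0.11). The groups of all 3 overlapped, and the interval of each lay within 1.5-fold on the probe set used. The other probe sets of Rpl13a gave 0.33 (SE 0.20), 0.15 (SE 0.18) and 0.16 (SE 0.14).

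Of the other named large subunit genes, Rpl12 and Rpl14 varied widely between arrays of 1 group (pooled SD 0.483 and 0.498). Rpl22 varied less (0.167). Rpl12, of the stalk base, read 8.61, 8.04, 8.73, 8.99 and 9.64 in WT and 8.25, 8.71, 8.83, 8.96 and 9.22 in KO, a difference of -0.01 (SE 0.26). Rpl14 read 6.96, 8.09, 7.33, 7.56 and 7.98 in WT and 8.22, 7.39, 7.36, 6.87 and 7.93 in KO, a difference of -0.03 (SE 0.27). In Rpl12 WT 2 and KO 8 were the lowest, and in Rpl14 they were the highest. Rpl22, an RNA-binding protein, read 12.26, 12.48, 12.29, 12.25 and 12.32 in WT and 12.70, 12.17, 12.35, 12.19 and 12.26 in KO, a difference of 0.01 (SE 0.13). Its other probe sets gave 0.02 (SE 0.13) and, on a much dimmer one with a mean of 6.18, 0.55 (SE 0.26).

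In the small subunit Rps6, whose phosphorylation by S6 kinase is the usual readout of mTORC1 activity, had the highest difference. It read 7.29, 8.66, 8.02, 8.06 and 8.22 in WT and 8.73, 8.19, 8.43, 7.80 and 8.52 in KO. WT 1 was the lowest array, KO 21 came next, and WT 2 was near the top, so the groups overlapped widely. The difference was 0.28 (95% interval -0.24 to 0.81, limma adjusted p = 0.730), and the other probe set of Rps6 gave 0.10.

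Rps26, Rps3a1 and Rps4x shared the low value on WT 1. Rps26, at the exit of the mRNA channel, read 10.55 on WT 1 and 10.99 to 11.17 on the other WT arrays, against 10.94 to 11.42 in KO, a difference of 0.23 (SE 0.16). Rps3a1 read 11.44 on WT 1, 12.17 to 12.32 on the other WT arrays and 12.07 to 12.45 in KO, a difference of 0.22 (SE 0.18). Rps4x, an X-linked core protein, read 11.70 on WT 1, 12.08 to 12.20 on the other WT arrays and 12.16 to 12.32 in KO, a difference of 0.18 (SE 0.13). For each of the 3 genes the WT arrays other than WT 1 lay within or close to the KO range, and the limma adjusted p lay between 0.630 and 0.702.

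Rps19 and Rps20 are known in the skin: missense mutations of either darken mouse skin through p53 in keratinocytes. Rps19, also mutated in Diamond-Blackfan anaemia, read 10.99, 11.25, 10.95, 10.93 and 11.06 in WT and 11.27, 10.91, 11.12, 10.59 and 11.08 in KO, a difference of -0.04 (SE 0.15) with KO 21 the lowest array. Rps20, named here after its values were seen, read 12.08, 12.26, 12.28, 12.11 and 12.05 in WT and 12.26, 12.26, 12.35, 12.23 and 12.20 in KO, a difference of 0.10 (SE 0.11). The groups overlapped in both genes, and both intervals lay within 1.5-fold on the probe sets used. The other probe sets of Rps20 gave -0.19 (SE 0.22), 0.26 (SE 0.38) and 0.16 (SE 0.14).

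Rps3, which also has a role in DNA repair, read 12.29, 12.58, 12.47, 12.53 and 12.45 in WT and 12.50, 12.64, 12.53, 12.46 and 12.65 in KO, a difference of 0.10 (SE 0.12). Rps25, needed by several viral internal ribosome entry sites, read 8.65, 8.50, 8.60, 9.08 and 9.51 in WT and 9.02, 8.63, 8.67, 8.71 and 8.98 in KO, a difference of -0.07 (SE 0.20). Rps27, a small subunit protein with a zinc finger, read 4.51, 4.38, 4.15, 4.11 and 4.36 in WT and 4.74, 4.37, 4.52, 3.86 and 4.61 in KO, a difference of 0.12 (SE 0.17). All 3 overlapped between the groups, WT 5 stood high for Rps25, and KO 21 was the lowest for Rps27.

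The other 22 genes were core members. Their differences ran from -0.09 for Rps2 and -0.05 for Rpl6 to 0.15 for Rps10 and Rps24 and 0.20 for Rps14. Between these lay Rpl41, Rpl4, Rpl35, Rpl19, Rps15, Rps18, Rpl27, Rps9, Rpl37, Rps29, Rpl27a, Rps28, Rps7, Rps16, Rpl8, Rpl37a and Rpl7a, all with a positive difference of 0.01 to 0.14. Rps14, also given after its values were seen, read 11.70, 12.22, 11.79, 11.74 and 11.66 in WT and 12.17, 12.10, 12.03, 11.72 and 12.10 in KO, with WT 2 the highest and WT 5 the lowest array. Its limma adjusted p was 0.663.

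**Figure D3:**
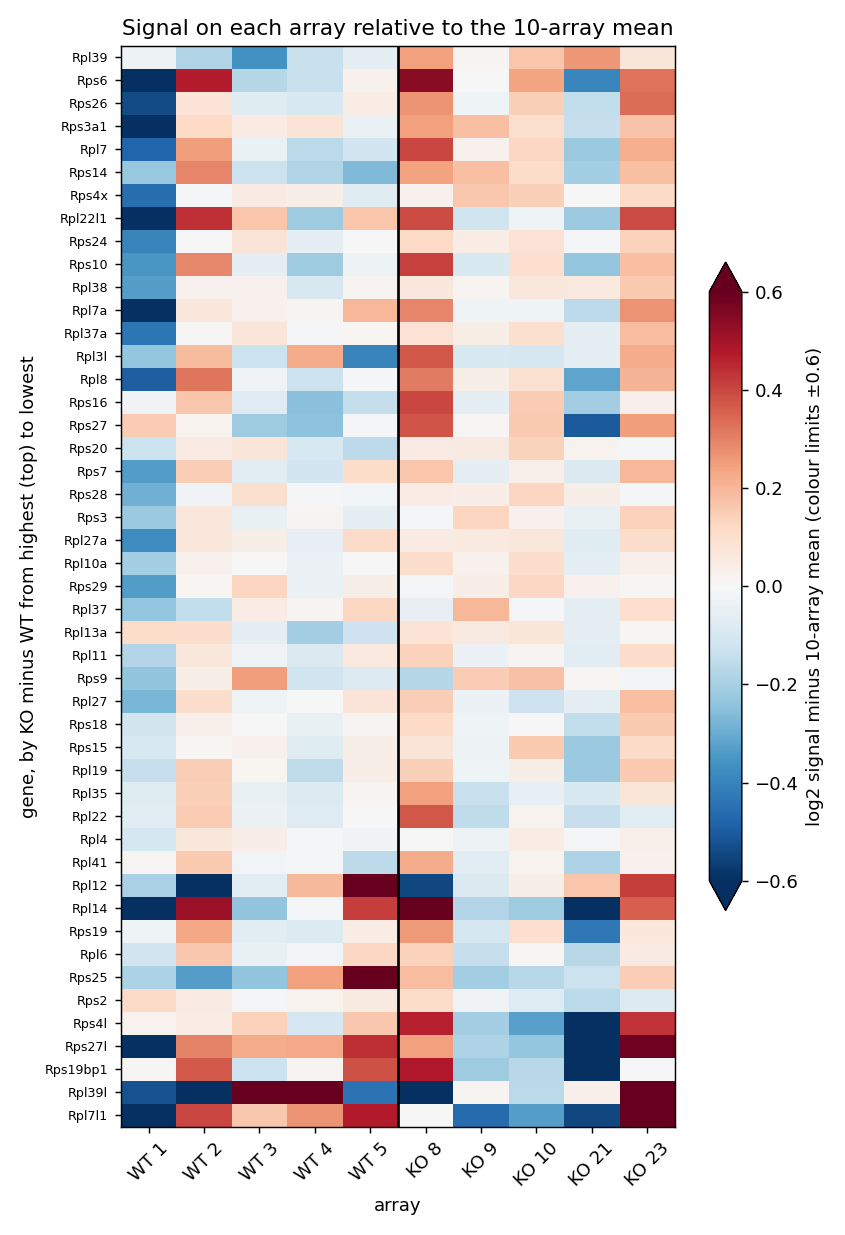
Signal of each of the 47 genes (y axis, ordered by KO minus WT) on each array (x axis) as log2 deviation from the gene's 10-array mean, with colours limited to ±0.6 and a black line between WT and KO. WT 1 is blue over most genes and is the lowest array for 25 of them, KO 8 and KO 23 are red over many, and no band of genes separates the WT from the KO arrays.

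The paralogues and related genes varied more. Rpl7l1 read 6.65, 7.69, 7.45, 7.56 and 7.76 in WT and 7.29, 6.83, 6.96, 6.74 and 7.95 in KO. KO 9, 10 and 21 lay below 4 of the WT arrays, but WT 1 was the lowest and KO 23 the highest of all. The difference was -0.27 (95% interval -0.83 to 0.30, limma adjusted p = 0.779), and the other probe sets of the gene gave -0.17 and -0.02. Rps19bp1 read 8.08, 8.44, 7.94, 8.09 and 8.46 in WT and 8.56, 7.86, 7.91, 7.34 and 8.07 in KO, a difference of -0.26 (SE 0.21), with KO 21 the lowest and KO 8 the highest array.

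Rps27l, a paralogue of Rps27 and a transcriptional target of p53, read 9.02, 10.12, 10.05, 10.05 and 10.27 in WT and 10.07, 9.64, 9.60, 9.03 and 10.41 in KO. WT 1 and KO 21 were each the lowest of their group by a wide gap, and the groups overlapped. The difference was -0.15 (95% interval -0.76 to 0.45, limma adjusted p = 0.910), and its other probe sets gave -0.11 and -0.17. Rps4l, a copy of Rps4x, read 6.45, 6.47, 6.56, 6.32 and 6.59 in WT and 6.89, 6.22, 6.10, 5.79 and 6.86 in KO. The WT arrays were close together while the KO arrays spread on both sides of them (SD 0.10 and 0.48), and the difference was -0.10 (SE 0.21).

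Rpl39l, a copy best known from testis, had the widest spread of the 47 genes. It read 4.47, 3.94, 6.60, 6.07 and 4.55 in WT and 3.84, 5.01, 4.83, 5.02 and 5.61 in KO. WT 3 and WT 4 were the high arrays, and the other WT values lay inside the KO range. The difference was -0.26 (95% interval -1.31 to 0.78, limma adjusted p = 0.910). The same 2 arrays carried the highest mean signal of 10 fibroblast markers (8.67 and 8.23, against 5.21 to 7.12 on the other arrays), and the part of such cells in the Rpl39l signal was not tested.

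Rpl22l1, the copy of Rpl22 that can replace it, read 7.86, 9.28, 9.0, 8.62 and 9.01 in WT and 9.23, 8.72, 8.81, 8.62 and 9.23 in KO. WT 1 stood low and the other WT arrays covered the KO range, and the difference was 0.17 (SE 0.25). Without WT 1 it was -0.06. Rpl3l, the copy of Rpl3 known from heart and skeletal muscle, was dim at 2.21 to 2.83 in WT and 2.51 to 2.98 in KO, a difference of 0.14 (SE 0.16).

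**Figure D4:**
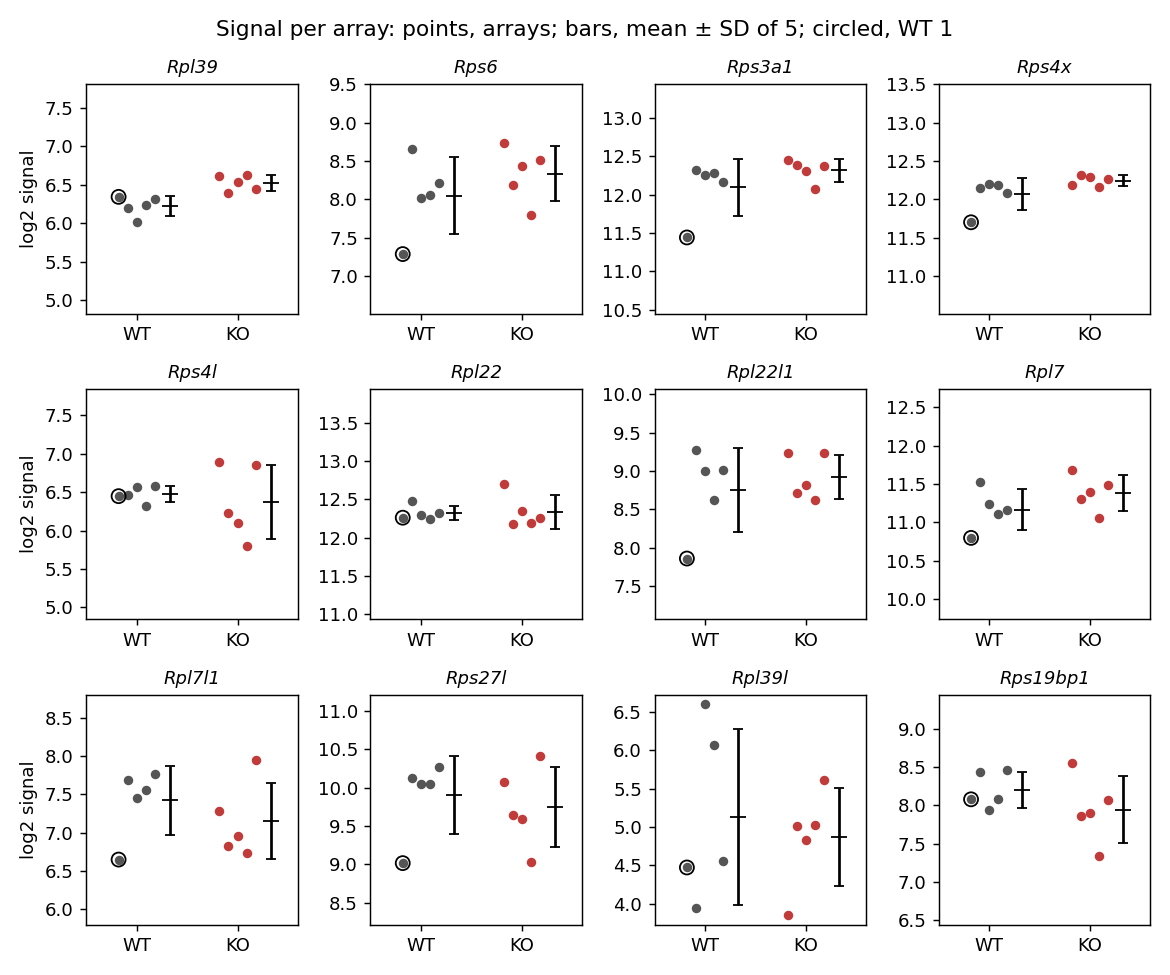
Log2 signal (y axis, 3 units in every panel) of 12 genes per array (points; grey WT, red KO; WT 1 circled) with mean ± SD of 5 arrays beside them. KO lies above WT on every array in Rpl39, and the groups overlap in the other 11 panels, with WT 1 far below the other WT arrays in Rps6, Rps3a1, Rpl22l1, Rpl7l1 and Rps27l.

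A paralogue can be set against its core gene within each array, as the difference of the 2 log2 signals. For the 5 pairs with both genes measured, KO minus WT of this difference was -0.49 for Rpl7l1 against Rpl7, -0.57 for Rpl39l against Rpl39, -0.28 for Rps4l against Rps4x, -0.27 for Rps27l against Rps27 and 0.15 for Rpl22l1 against Rpl22. The Rps27 and Rpl39 values come from their own, dimmer probe sets (means 4.36 and 6.37), and the pairs were not tested on the brighter shared ones. For Rpl7l1 against Rpl7 the difference was -4.15, -3.84, -3.79, -3.56 and -3.40 on the WT arrays and -4.39, -4.47, -4.44, -4.31 and -3.54 on the KO arrays. KO 23 lay among the WT arrays and the other 4 KO arrays below all of them. The two-sided exact permutation p over the 252 assignments of the arrays was 0.0794, and 0.397 adjusted over the 5 pairs. The adjusted exact p of the other pairs lay between 0.526 and 0.643, so no pair passed.

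Other probe sets for the same transcripts did not pass the test either. The 47 genes have 102 probe sets of their own, and 24 genes have only 1. The 55 probe sets not used above belong to 23 genes, with differences of -0.45 to 0.55. With adjustment over all probe sets limma called 0 of them, and 0 had an unadjusted p below 0.05. Over all 45037 probe sets limma called 508 higher and 64 lower, so 0 calls in so small a set says little. In 14 of the 55 the sign was opposite to that of the probe set used. Another 109 probe sets list a ribosomal protein gene among several genes, mostly bright, with a median level of 11.9. Of these limma called 0, with 0 at an unadjusted p below 0.05 and 10.1% of all probe sets below it. Their differences ran from -0.24 to 0.51 with a median of 0.07, and 85 were positive and 24 negative. Over all probe sets 21133 were positive and 23904 negative.

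The ribosomal proteins that the symbol rule leaves out did not pass either. Of the stalk proteins, Rplp0 was 0.24 (SE 0.16) and Rplp2 0.24 (SE 0.16). Rpsa, also the laminin receptor precursor, was -0.19 (SE 0.16) and Fau, made as a fusion with a ubiquitin-like protein, 0.13 (SE 0.17). The limma adjusted p of the 4 lay between 0.631 and 0.856. Rpsa was highest on WT 1 (13.47), the array on which Rplp0 and Rplp2 were lowest (11.60 and 12.22).

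The factors that work with the ribosome showed 1 call. Of 14 elongation and termination factors 0 were called, 0 had an unadjusted p below 0.05 and the median difference was -0.04. Of 37 initiation factors 1 was called, Pabpc4, an inducible poly(A)-binding protein, where 0.346% of all genes were called lower. An unadjusted p below 0.05 was found for 2 of the 37 (5.41%, against 13.0% of all genes). Pabpc4 fell by 0.62 (SE 0.14, limma adjusted p = 0.0414), from 8.95 ± 0.13 in WT to 8.33 ± 0.24 in KO (n = 5 each). With the mean of its probe sets the difference was -0.49 (limma adjusted p = 0.0820), with the probe set not marked as able to match several transcripts -0.37 (limma adjusted p = 0.280), and the call was kept without WT 3 or KO 8 but not without any other single array. The median of the 37 initiation factors was -0.01, near that of all genes.

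The genes whose products assemble ribosomes had mostly negative differences. Of 95 ribosome biogenesis factors, 82 had a negative and 13 a positive difference, with a median of -0.19. Limma called 0, 11 had an unadjusted p below 0.05 (11.6%, against 13.0% of all genes), and 3 had every KO array below every WT array (1.02% of all genes did). The smallest limma adjusted p was 0.150, for the nucleolar methyltransferase gene Ftsj3 at -0.41 (SE 0.13). Without WT 1, 88 of the 95 were negative, and without WT 1 and KO 21, 78 were. Rpl7l1 and Rps19bp1 belong to this list as well as to the 47 genes. Of 76 mitochondrial ribosomal proteins, a separate set of proteins for the ribosome inside mitochondria, 57 were negative and 19 positive with a median of -0.16. Limma called 0, 6 had an unadjusted p below 0.05 (7.89%, against 13.0% of all genes), and the smallest limma adjusted p was 0.121, for Mrpl11 at -0.49 (SE 0.14). No test sets these lists against the 47 genes.

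**Figure D5:**
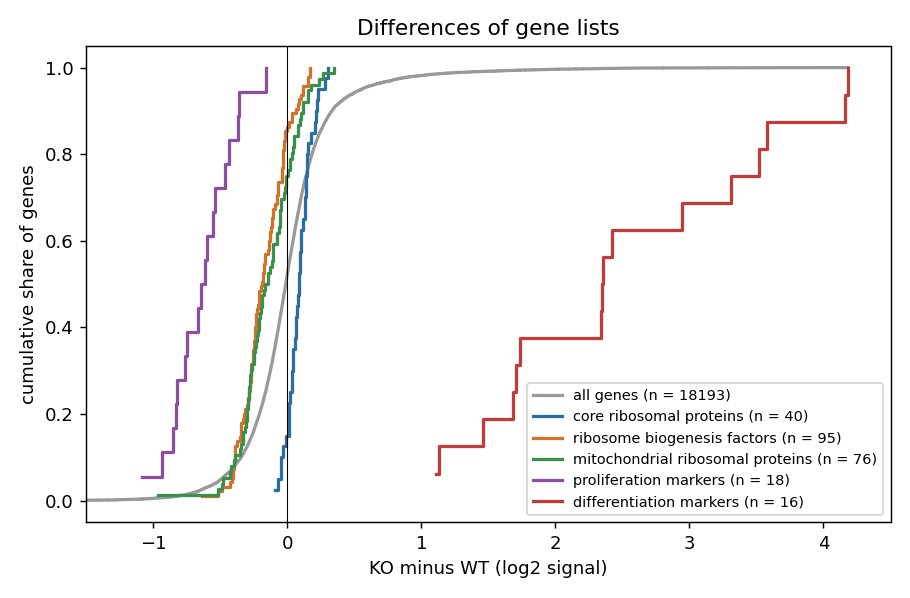
Cumulative share of genes (y axis) at or below a given KO minus WT (log2 signal, x axis, cut at the left) for 40 core ribosomal proteins, 95 biogenesis factors, 76 mitochondrial ribosomal proteins, 18 proliferation markers, 16 differentiation markers and all 18193 genes. The core ribosomal proteins rise steeply between -0.09 and 0.30 (median 0.08), the biogenesis and mitochondrial lists cross 50% near -0.19 and -0.16, and every differentiation marker lies above 1. The gene lists were chosen with earlier results of these data known.

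The regulators of ribosomal protein synthesis were measured on the same arrays. Of 34 subunits and factors of RNA polymerases I and III, which transcribe the ribosomal and transfer RNAs, 0 were called and 1 had an unadjusted p below 0.05 (2.94%, against 13.0% of all genes), Polr3g at 0.44 (SE 0.13, limma adjusted p = 0.129). Of 33 genes of mTORC1 signalling and TOP mRNA control, 0 were called and 4 had an unadjusted p below 0.05 (12.1%, near the 13.0% of all genes). Without WT 1 the S6 kinase gene Rps6kb2 was called higher. Rragd, a GTPase that brings mTORC1 to the lysosome, had the smallest limma adjusted p, 0.151, at 0.60 (SE 0.19), and read 6.64 ± 0.41 in WT and 7.24 ± 0.18 in KO (n = 5 each). Of 15 genes of the watch that Mdm2 and p53 keep over ribosome assembly, 0 were called and 4 had an unadjusted p below 0.05 (26.7%, against 13.0% of all genes). The smallest limma adjusted p there was 0.157, for Ipo9, an importin that carries ribosomal proteins into the nucleus, at -0.57 (SE 0.18). Whether Ipo9 was called depended on the setting. Without WT 1 it was -0.72 (limma adjusted p = 0.0163) and was called lower. It was also called lower with the mean of its probe sets (-0.57, limma adjusted p = 0.0213). Over all alternatives its limma adjusted p ran from 0.00440 to 0.368, with 6 calls.

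Marker genes of epidermal differentiation passed the test on the same arrays on which no ribosomal protein gene did. All 16 epidermal differentiation markers were called higher in KO, where 2.30% of all genes were. Their median difference was 2.35, and their mean signal was 6.92 to 7.99 on the WT and 9.65 to 10.17 on the KO arrays. This list was chosen with earlier results of these data known, so its calls are not an independent check of the test. All 18 proliferation markers were negative, with a median of -0.63, and 12 had an unadjusted p below 0.05 (66.7%, against 13.0% of all genes). Limma called 2 of the 18 lower, where 0.346% of all genes were. Mki67 fell by 0.56 (SE 0.13, limma adjusted p = 0.0401) and Prc1 by 0.94 (SE 0.21, limma adjusted p = 0.0296). Neither was called without WT 1, WT 2, WT 4, WT 5, KO 9 or KO 10, Mki67 was not called without WT 3 or KO 23, and Prc1 was not called without KO 21. With arrays centred on their medians Mki67 had a limma adjusted p of 0.0668. The mean signal of the proliferation list was 8.35 on KO 8 and 8.28 on KO 23, against 7.44 to 7.61 on the other KO arrays and 8.18 to 8.90 in WT. KO 8 and KO 23 are also the 2 arrays with the highest ribosomal protein signal and the 2 KO arrays with the highest biogenesis factor signal (8.76 and 8.80, against 8.25 to 8.48). Over all 10 arrays, however, WT 5 had the highest proliferation and biogenesis signals (8.90 and 8.97). Its median ribosomal protein deviation was only 0.02. The part of the state of the cells in the ribosomal protein values was not tested.

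The 9 basal keratinocyte markers averaged 10.8 to 11.1 on the WT and 10.8 to 11.3 on the KO arrays, and 0 were called. Markers of other cells were uneven between arrays. The mean of 7 melanocyte markers ran from 6.73 to 9.84 in WT and from 8.11 to 9.67 in KO, with WT 1 the lowest. The mean of 10 fibroblast markers ran from 5.21 to 8.67 and from 5.49 to 7.12, that of 12 immune markers from 4.32 to 5.09 and from 4.38 to 5.14, and that of 9 endothelial and muscle markers from 4.70 to 5.36 and from 4.53 to 5.04. Limma called 0 of these genes, with 1 (Emcn) at an unadjusted p below 0.05, and their part in the ribosomal protein values was not tested.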

How the data were processed

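Per the submitters' processing notes, RMA gave the deposited log2 signals, which hold 1 value for each probe set on each array. It corrects the background, equalises the arrays and summarises the probes of a set, so a shift shared by most genes is not visible. The software version is not given in the sources used here, and biotinylated cRNA was prepared from 6 µg of total RNA, per the labels' protocols. Of 45101 probe sets, 64 are controls, 34945 list 1 gene, 932 several and 9160 none in the platform annotation used, which can be old. All 47 gene identifiers were found in the RefSeq table, and 0 value columns were left out. Values were used as deposited, with no filter on dim genes. Precision is limited by having 5 arrays in a group.

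KO minus WT was tested with limma 3.58.1 (R 4.3.3; a linear model per gene with eBayes moderation, two-sided, Benjamini-Hochberg over 18193 genes, threshold 0.05), a step tested on simulated data. SE and the 95% interval come from that fit. Paralogue pairs were compared by an exact permutation test. A serial number in the labels runs from 1 to 5 over WT and from 6 to 10 over KO. What it orders is not stated, and it cannot be told apart from the groups.

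The genes and gene lists were chosen with earlier results of these data known. Genes named with values were called or non-overlapping genes, the 5 highest and 5 lowest differences, paralogue pairs, 10 genes with known roles of which 9 were measured, the 4 with the largest spread, the ribosomal proteins outside the symbol rule, and, of each other list, up to 4 called genes or the one with the smallest adjusted p. Alternatives changed the choice of probe set, the centring and scaling of arrays, the variance model, array weights, a filter on dim genes and the arrays included.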

Additional observations from a re-analysis of the deposited data

Results flagged for a closer look

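In 6 of the genes given above with their values, WT 1 was lower than the other 4 WT arrays by a gap that took up more of the group's range than a test for a single outlying value (Dixon) allows. WT 1 read 11.92 for Rpl10a, with the other WT arrays at 12.09 to 12.15. It read 6.651 for Rpl7l1, against 7.448 to 7.762, and 10.55 for Rps26, against 10.99 to 11.17. For Rps27l it read 9.016, against 10.05 to 10.27, and for Rps3a1 11.44, against 12.17 to 12.32. For Rps4x it read 11.70, against 12.08 to 12.20. These are 6 of 48 groups tested, and over all 47 genes there were 10 of 94. Chance marks about 1 in 20 groups, and genes on 1 array are not independent of each other.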

How the results depend on the processing

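Under 19 alternatives limma called 0 of the 47 genes higher and 0 lower, and the smallest adjusted p was 0.0882, for Rpl39 with array weights. The median difference of the 47 genes stayed between 0.02 and 0.10. Over all genes the alternatives called 264 to 877 higher and 13 to 561 lower, against 419 and 63, and array weights gave the upper end of both. In the other lists, array weights called 12 of 18 proliferation markers, Ebna1bp2 of the biogenesis factors, Mrpl11 and Mrpl47, and Ipo9 lower. They called Col17a1 higher and 4 mTORC1 and TOP genes, 3 higher and 1 lower (Deptor, Larp4, Rps6kb2 and Rragd). With arrays centred and scaled Mki67 had a limma adjusted p of 0.140. The number of genes with every KO array above every WT array was 0 with arrays centred on their median, and 1 to 2 when an array was left out. The number with every KO array below was 0 to 1 when an array was left out, and 1 without WT 1, WT 2 and KO 8 (Rps2). With arrays centred and scaled to one spread, a choice made after seeing the data, Rps26 and not Rpl39 was without overlap.

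Of 453 combinations of a named gene and an alternative, 427 kept the sign and 26 changed it, none of them a call. Leaving out an array in turn gave -0.1983 to 0.2009 for Rpl12, -0.1965 to 0.1412 for Rpl14, -0.07777 to 0.05443 for Rpl22 and -0.05527 to 0.2993 for Rpl22l1. It gave -0.5619 to 0.1054 for Rpl39l, -0.1136 to 0.05756 for Rps19, -0.1593 to 0.09325 for Rps25, -0.3755 to 0.02652 for Rps27l and -0.2348 to 0.03994 for Rps4l. Array weights gave -0.007926 for Rpl22 and -0.01965 for Rpl3l. Without WT 1, WT 2 and KO 8 the values were -0.04506 for Rpl22 and -0.03267 for Rpl22l1. Without WT 1 and KO 21, also chosen after seeing the data, they were 0.04612 for Rps19 and 0.0325 for Rps4l, and with arrays scaled Rpl22 was -0.01925. The cause was not tested. No paired analysis was possible because the groups share no replicate number. Dim probe sets limit what the data can show for Rpl37, Rps16, Rpl3l and Rps27.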
